A study of Rattus norvegicus with 9 samples.

Results

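Matrix metalloproteases (MMPs) and the tissue inhibitors of metalloproteases (TIMPs) were followed in cultured rat olfactory stem cells treated with a phorbol ester. The set held 10 genes out of 17315 in the count tables, picked by symbol: the proteases Mmp1, Mmp3, Mmp9, Mmp10, Mmp12, Mmp13 and Mmp14 and the inhibitors Timp1, Timp2 and Timp3. All 10 symbols were found, and 9 passed the filter on low counts; Timp3 did not. The cells were primary horizontal basal cells from the olfactory epithelium of SD rats at passage 7. A group of 3 libraries had received vehicle (0.1% DMSO, labelled time 0), another 3 libraries came from cells kept 6 h in 50 nM phorbol 12-myristate 13-acetate (PMA), and another 3 from cells kept 12 h in it. No vehicle library was labelled 6 h or 12 h, so PMA and time in culture cannot be told apart in any comparison with vehicle. Likewise, longer PMA and longer culture cannot be told apart between the PMA groups. Nothing in the labels ties replicates to separate cultures or animals, and p-values measure the spread between these libraries only, which may be technical.

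MMPs are zinc-dependent endopeptidases that cells secrete, or carry on their surface, as inactive proenzymes. Once a propeptide is removed they cut collagens, laminins, gelatin and other matrix proteins, and they also release growth factors and receptors from the cell surface. TIMPs bind the active site of MMPs and block it. Horizontal basal cells lie on the basement membrane of the olfactory epithelium as its reserve stem cells. PMA activates protein kinase C, and collagenase and stromelysin genes are textbook examples of phorbol ester-responsive genes, read through promoter elements bound by the Fos and Jun family factors called AP-1.

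Promoter sequence from RefSeq (assembly GRCr8, 250 bases before to 50 bases after each gene's start) was at hand for 8 of the 10 genes; Mmp9 and Mmp14 had no entry. The AP-1 motif TGAGTCA, searched on both strands, stood in 5 of 5 promoters of MMP members and in 0 of 3 TIMP promoters. It stood in 4.63% of all 33469 promoters of that length and in 3.8% of the 8142 promoters of tested genes. The 5 MMP members lie in a single run of MMP genes on chromosome 8, so they are not independent cases. Of the other genes of that run, Mmp7 held the AP-1 letters and Mmp8, Mmp27 and Mmp20 did not. The TATA box letters TATAAA, also searched on both strands, stood in the same 5 MMP promoters and in 0 of 3 TIMP promoters. They stood in 14.2% of all promoters and in 6.2% of those of tested genes. These 2 motifs did not overlap in the promoters searched. Only exact letters were searched, so variants such as tgagtaa, which stands near the start of the Timp1 window below, were not counted. The 5 MMP windows are printed since they show this arrangement, AP-1 first and the TATA box nearer to the start. That of Timp1 is printed since it holds neither motif in these exact letters. Each runs 5′ to 3′ along the gene from base -110 to base -11 before the annotated start, and capitals mark the AP-1 and TATA box letters.
Mmp13 (chr8:12782719-12782818, plus strand): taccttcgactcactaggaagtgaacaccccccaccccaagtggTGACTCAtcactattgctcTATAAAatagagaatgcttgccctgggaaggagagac
Mmp12 (chr8:12866542-12866641, plus strand): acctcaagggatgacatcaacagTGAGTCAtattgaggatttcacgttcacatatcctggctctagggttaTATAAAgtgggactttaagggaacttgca
Mmp3 (chr8:12925171-12925270, plus strand): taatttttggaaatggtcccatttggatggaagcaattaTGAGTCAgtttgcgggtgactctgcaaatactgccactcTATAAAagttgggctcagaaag
Mmp1 (chr8:12943343-12943442, plus strand): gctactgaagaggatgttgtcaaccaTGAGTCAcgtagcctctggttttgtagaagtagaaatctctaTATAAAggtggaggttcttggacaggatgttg
Mmp10 (chr8:12974597-12974696, plus strand): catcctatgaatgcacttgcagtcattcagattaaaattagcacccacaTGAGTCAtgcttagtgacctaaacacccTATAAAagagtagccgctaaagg
Timp1 (chrX:3771133-3771232, minus strand): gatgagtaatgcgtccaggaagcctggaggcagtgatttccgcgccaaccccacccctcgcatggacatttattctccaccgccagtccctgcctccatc

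The leftmost base of the AP-1 match lay at -66 in Mmp13, where it is read on the opposite strand, -87 in Mmp12, -71 in Mmp3, -84 in Mmp1 and -61 in Mmp10. The nearest TATA box letters began at -47, -39, -32, -42 and -33 in the same order of genes, and Mmp10 held 2 further matches at -198 and -196. A match of letters is a description of the window and not a bound site. The cyclic AMP response motif TGACGTCA and the NF-kB motif GGANTTTCC stood in none of the 8 promoters. Of all promoters 1.83% and 1.28% hold them, and of those of tested genes 3.4% and 1.4%. The ETS motif AGGAAG, common at 34.5% of all promoters and 33.2% of those of tested genes, stood in those of Mmp1, Mmp3, Mmp13 and Timp1.

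**Figure D1:**
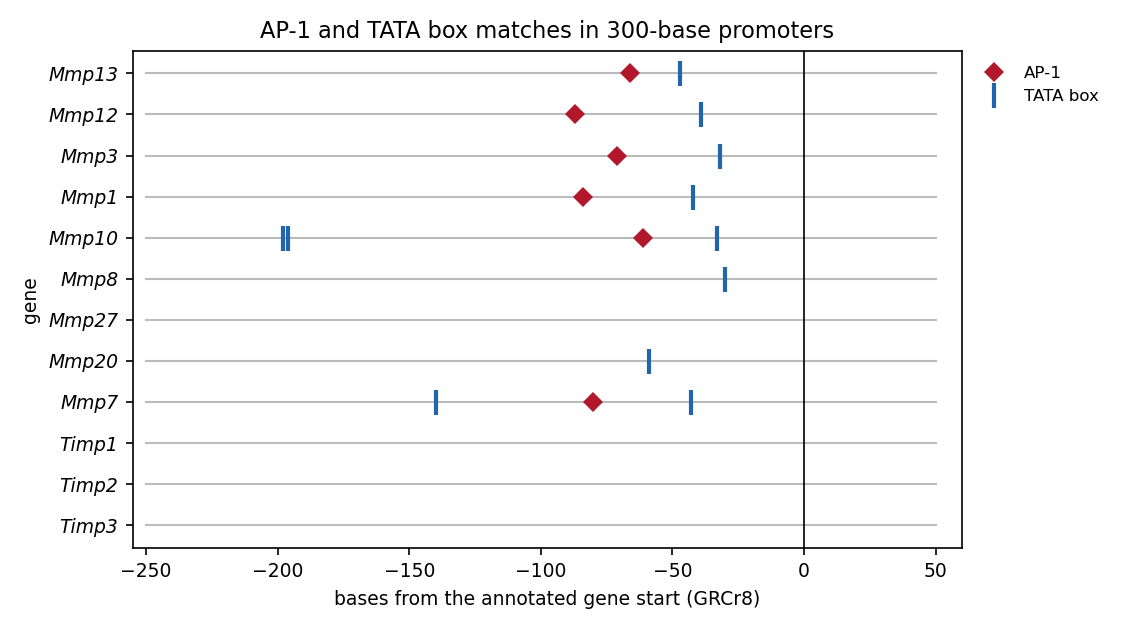
Motif matches in the promoters of 12 MMP and TIMP genes; the x axis is the distance in bases from the annotated gene start, each grey line is 1 promoter, diamonds are AP-1 matches and bars TATA box matches on either strand. Mmp13, Mmp12, Mmp3, Mmp1, Mmp10 and Mmp7 hold an AP-1 match between -87 and -61, and the 3 Timp promoters hold neither motif in its exact letters.

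Between 13601635 and 19001819 reads per library fell in genes, 67.8% to 71.3% of all reads. Levels are in CPM, counts relative to the library total times a TMM factor (1.285 to 1.313 in vehicle libraries, 0.848 to 0.911 in PMA libraries), and since transcript lengths were not used they compare a gene between libraries, not genes with each other. The horizontal basal cell markers Krt5, Krt14, Krt15, Tp63, Itga6, Itgb4 and Icam1 were all present, with a summed level of 14840 to 17040 CPM in vehicle libraries, 2467 to 2980 CPM at 6 h and 3854 to 4497 CPM at 12 h; the part of this in the changes below was not tested. Krt5 and Krt14 carried most of the vehicle sum, and Icam1 went the other way, at 130 to 153 CPM in vehicle, 156 to 193 CPM at 6 h and 328 to 405 CPM at 12 h. In bulk RNA, fewer cells of a type and less RNA per cell cannot be told apart. Fibroblast and pericyte markers summed to between 1.97 and 6.00 CPM in every library, with Col1a2, Lum, Pdgfrb, Thy1 and Rgs5 at 0 throughout and 8 of 10 under 1 CPM. Macrophage and other immune markers summed to 27.8 to 29.8 CPM in vehicle libraries, 71.7 to 73.4 CPM at 6 h and 85.5 to 96.6 CPM at 12 h. Cd68, a lysosomal protein, made up most of it in every library, at 17.9 to 20.8 CPM in vehicle, 67.7 to 70.7 CPM at 6 h and 79.8 to 92.4 CPM at 12 h. Cd14, the next most abundant in vehicle, went the other way, at 7.12 to 8.21 CPM in vehicle, 1.10 to 1.94 CPM at 6 h and 2.77 to 4.21 CPM at 12 h. Of these 10 markers 6 stayed under 1 CPM everywhere, and Ptprc and Cd163 were at 0 throughout. Neuronal markers summed to at most 9.51 CPM and endothelial markers to at most 4.08 CPM.

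The question of the comparison with vehicle is which of these genes had moved after 6 h and after 12 h in PMA. At 6 h, 7 of the 9 tested genes were higher than in vehicle and 0 lower, and at 12 h 9 were higher and 0 lower (edgeR's quasi-likelihood test, adjusted p under 0.05 over 10128 genes). Calls were common among all genes: at 6 h 37.8% were called higher and 39% lower, and at 12 h 37.7% higher and 38.2% lower. The median log2 fold change of the 9 genes was 2.41 at 6 h and 3.21 at 12 h, beside -0.03 and -0.02 over all tested genes. Between the PMA groups, 6 of the 9 were higher at 12 h than at 6 h and 1 was lower, where 25.3% of all genes were called higher and 25.8% lower. The split of all calls depended on the scaling. At 6 h, 3831 genes were higher and 3945 were lower; upper-quartile scaling gave 3023 higher and 4837 lower, and no normalization 2277 higher and 5855 lower. At 12 h, 3818 genes were higher and 3864 were lower; upper-quartile scaling gave 2963 higher and 4827 lower, and no normalization 2120 higher and 6021 lower. The counts of MMP and TIMP genes called in each comparison were unchanged under these scalings.

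**Figure D2:**
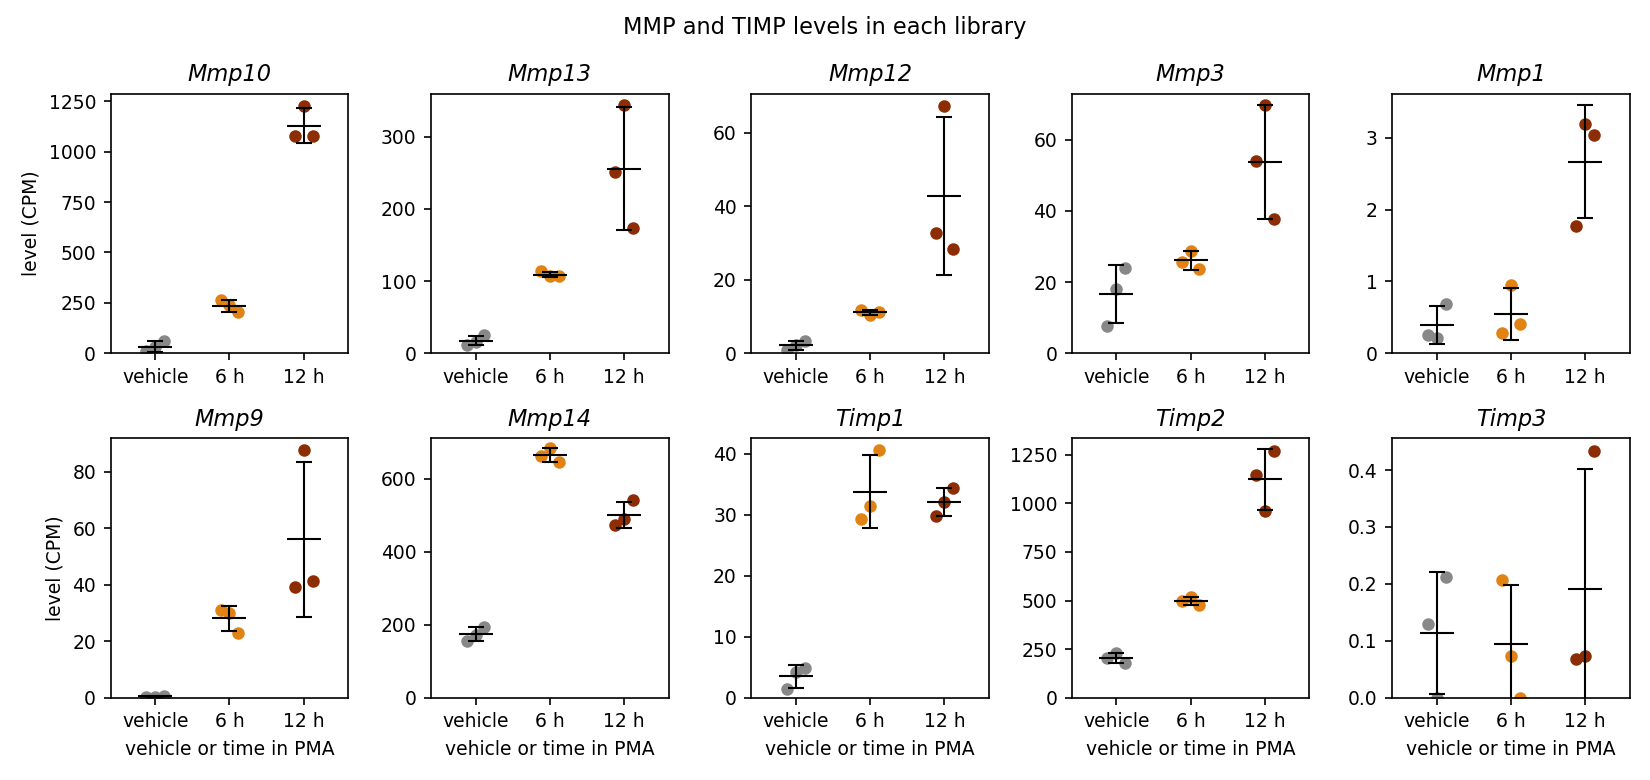
Level in CPM (y axis, starting at 0 in each panel) of the 10 genes in vehicle, 6 h PMA and 12 h PMA libraries; points are libraries, long bars the mean and whiskers the SD of 3. Mmp10, Mmp13, Mmp12, Mmp9 and Timp2 step upward at each time, Mmp14 is highest at 6 h, Timp1 has reached about its 12 h level by 6 h, and Timp3 stays at or under 0.434 CPM.

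The stromelysins cut a wide range of matrix proteins and activate other MMP proenzymes. Mmp10, stromelysin 2, which human keratinocytes make at wound edges, had 9.97, 28.6 and 61.3 CPM in the vehicle libraries, 262, 239 and 203 CPM at 6 h, and 1078, 1228 and 1079 CPM at 12 h. The 3 groups did not overlap, and relative to the group mean the libraries at 12 h were the closest to each other. The fitted log2 fold change was 2.83 ± 0.58 (SE) at 6 h (adjusted p = 0.0036, edgeR) and 5.10 ± 0.63 at 12 h (adjusted p = 0.00028, edgeR), which is 7.12-fold and 34.2-fold. From 6 h to 12 h the level rose another 4.80-fold, a log2 difference of 2.26 ± 0.55 (adjusted p = 0.013, edgeR). Vehicle replicate 3, the highest of its group, weighs on the size: without it the log2 fold change was 3.60 at 6 h and 5.87 at 12 h. Mmp10 ranked 314 from the highest fold change among 10128 genes at 6 h and 69 at 12 h.

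Mmp3, stromelysin 1, moved less than Mmp10. Its levels were 7.77, 18.2 and 23.9 CPM in vehicle, 25.7, 28.9 and 23.7 CPM at 6 h and 54.2, 69.7 and 37.6 CPM at 12 h. The vehicle and 6 h libraries overlapped, and each 12 h library lay above all others. The log2 fold change of 0.66 ± 0.41 at 6 h did not pass (adjusted p = 0.18, edgeR); it passed with limma-voom (0.82, adjusted p = 0.031) and without vehicle replicate 3 (1.00, adjusted p = 0.044). At 12 h it was 1.71 ± 0.40 against vehicle (adjusted p = 0.0062, edgeR), a 3.27-fold rise. The step between 6 h and 12 h, 1.05 ± 0.40, missed the threshold in the fit to all libraries (adjusted p = 0.064, edgeR) and passed it with DESeq2 (adjusted p = 0.029), with limma-voom (adjusted p = 0.0084), in edgeR on the PMA libraries alone (adjusted p = 0.00059), and in edgeR without vehicle replicate 1 (adjusted p = 0.00066) or 3 (adjusted p = 0.028).

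Among the collagenases, which cut fibrillar collagen, Mmp13 (collagenase 3) had 11.7, 16.2 and 24.7 CPM in vehicle libraries, 114, 107 and 106 CPM at 6 h and 251, 343 and 173 CPM at 12 h. The groups stood apart, with a narrow 6 h group and a wide 12 h group. Mmp13 rose 6.26-fold at 6 h, a log2 fold change of 2.65 ± 0.34 (adjusted p = 0.00026, edgeR), and 14.7-fold at 12 h, 3.88 ± 0.35 (adjusted p = 3.6e-05, edgeR). Its step between 6 h and 12 h was 1.23 ± 0.31 (adjusted p = 0.014, edgeR), and without 6 h replicate 3 that call was lost (1.22, adjusted p = 0.051).

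Mmp1, named for collagenase 1, was counted at the edge of detection: 6, 5 and 13 reads in the vehicle libraries, 4, 13 and 7 reads at 6 h, and 26, 44 and 35 reads at 12 h. The vehicle and 6 h groups covered the same range, and the 12 h libraries all stood above it. At 6 h the log2 fold change was 0.50 ± 0.63 (adjusted p = 0.48, edgeR) with no settled sign, since it was 1.15 without vehicle replicate 3, -0.12 without 6 h replicate 2 and -0.03 with no normalization. At 12 h Mmp1 was higher than in vehicle by 2.80 ± 0.54 (adjusted p = 0.00016, edgeR), or 3.45 without vehicle replicate 3. It was higher than at 6 h by 2.29 ± 0.54 (adjusted p = 0.002, edgeR), or 2.92 without 6 h replicate 2. The current assembly places a sister gene, Mmp1b, between Mmp12 and Mmp3; it has no row in the tables and is not analysed here, and reads that map to several places were counted apart, so the Mmp1 values are uncertain.

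Mmp9, gelatinase B, which cuts denatured collagen and the type IV collagen of basement membranes, gave the largest fold change of the 9 tested genes at both times. It had 8, 10 and 14 reads in the vehicle libraries, or 0.345, 0.430 and 0.744 CPM. PMA libraries held 31.2, 30.2 and 23.0 CPM at 6 h and 39.2, 87.6 and 41.4 CPM at 12 h. Every PMA library was above every vehicle library, and 12 h replicate 2 stood well above the other 12 h libraries. Relative to vehicle, Mmp9 rose 56.2-fold at 6 h, a log2 fold change of 5.81 ± 0.50 (adjusted p = 8.1e-06, edgeR), and 112-fold at 12 h, 6.81 ± 0.49 (adjusted p = 2.6e-06, edgeR). It ranked 35 and 24 from the highest fold change among 10128 genes. The 12 h level exceeded the 6 h level by 1.00 ± 0.32 on the log2 scale (adjusted p = 0.03, edgeR), and this call was lost with no filter on low counts (adjusted p = 0.061), in a fit on the PMA libraries alone (adjusted p = 0.064) and without 6 h replicate 1, 2 or 3 (adjusted p = 0.059, 0.067 and 0.11, all edgeR).

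Mmp12, macrophage metalloelastase, cuts elastin and is best known from macrophages. Its levels were 0.906, 2.15 and 3.35 CPM in vehicle, 11.8, 10.4 and 11.1 CPM at 6 h and 32.7, 67.3 and 28.3 CPM at 12 h. The 3 groups did not overlap, and 12 h replicate 2 was again the highest. Mmp12 rose by 2.41 ± 0.50 on the log2 scale at 6 h (adjusted p = 0.0024, edgeR), 5.30-fold, and by 4.36 ± 0.49 at 12 h (adjusted p = 6.1e-05, edgeR), 20.5-fold. Between 6 h and 12 h it rose by 1.95 ± 0.42 (adjusted p = 0.0054, edgeR). Of the immune markers given above, Cd68 was higher and Cd14 lower in every PMA library than in every vehicle library. Ptprc, which all blood leukocytes carry, had 0 reads in every library. Which cells the Mmp12 reads came from was not tested.

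Mmp14, membrane type 1 MMP, sits in the plasma membrane, cuts fibrillar collagen at the cell surface and activates the Mmp2 proenzyme. It was the 1 member that was lower at 12 h than at 6 h. Its levels were 157, 172 and 194 CPM in vehicle, 662, 684 and 646 CPM at 6 h and 472, 489 and 541 CPM at 12 h. No 2 groups overlapped, and the 12 h libraries lay between the others. The log2 fold change against vehicle was 1.93 ± 0.09 at 6 h (adjusted p = 1.5e-12, edgeR) and 1.52 ± 0.09 at 12 h (adjusted p = 3.5e-11, edgeR), or 3.81-fold and 2.87-fold. From 6 h to 12 h Mmp14 fell by 0.41 ± 0.08 on the log2 scale (adjusted p = 0.00058, edgeR), which left 0.753 of the 6 h level.

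The inhibitors that were measurable rose too. Timp1, a soluble inhibitor that also binds the Mmp9 proenzyme, had 1.42, 4.25 and 4.89 CPM in vehicle libraries, 29.3, 31.4 and 40.6 CPM at 6 h and 29.9, 32.2 and 34.4 CPM at 12 h. All PMA libraries lay far above vehicle, and the 6 h and 12 h libraries overlapped. The log2 fold change was 3.28 ± 0.34 at 6 h (adjusted p = 1.5e-05, edgeR), 9.72-fold, and 3.21 ± 0.34 at 12 h (adjusted p = 1.8e-05, edgeR), 9.22-fold. The difference between 12 h and 6 h was -0.08 ± 0.29 (adjusted p = 0.85, edgeR), with its sign turning to 0.09 without 6 h replicate 3.

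Timp2, which inhibits Mmp14 and at the same time bridges it to the Mmp2 proenzyme, rose in 2 steps. The vehicle libraries held 206, 230 and 179 CPM, the 6 h libraries 500.5, 518 and 478 CPM and the 12 h libraries 1144, 959 and 1270 CPM. The 3 groups were well separated. Timp2 was 2.43-fold higher than vehicle at 6 h, a log2 fold change of 1.28 ± 0.10 (adjusted p = 7.3e-09, edgeR), and 5.49-fold higher at 12 h, 2.46 ± 0.11 (adjusted p = 2.9e-12, edgeR). Its step from 6 h to 12 h was 1.17 ± 0.10 (adjusted p = 1.3e-07, edgeR).

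Timp3, a matrix-bound inhibitor that also blocks Adam17, was hardly counted. It had 3, 0 and 4 reads in vehicle libraries, 3, 1 and 0 reads at 6 h and 1, 1 and 5 reads at 12 h, too few for a test, and a difference was not detectable at this depth. Timp4 had 0 reads in every library.

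**Figure D3:**
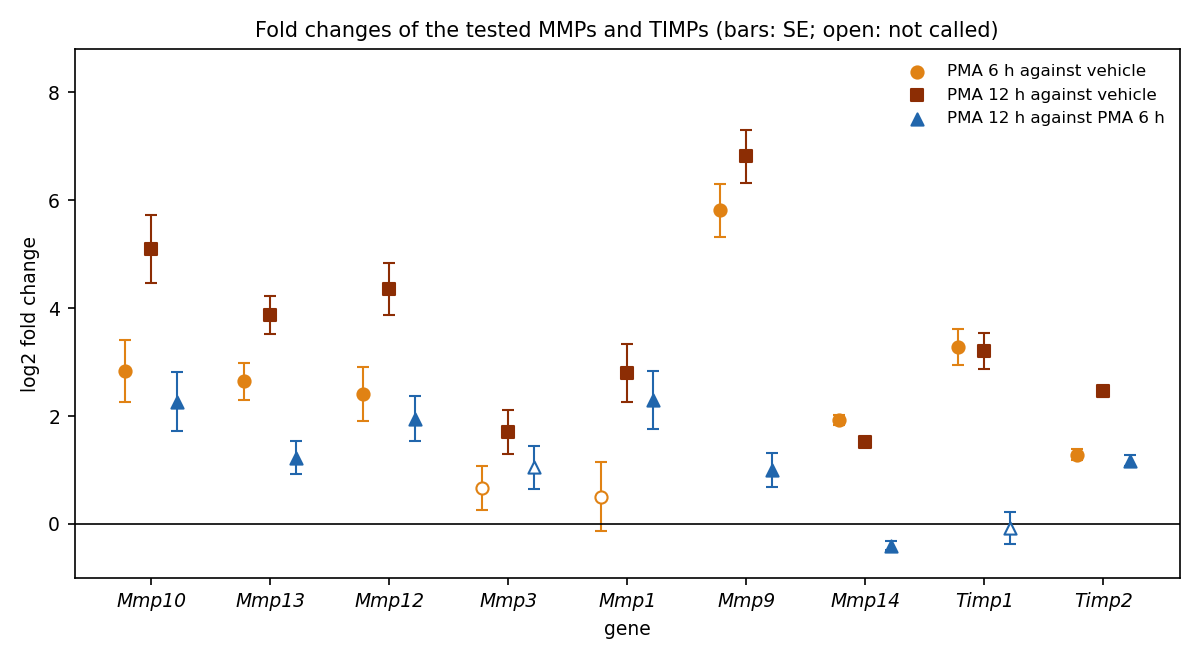
Fitted log2 fold change (y axis) of the 9 tested genes (x axis) at 6 h against vehicle (circles), 12 h against vehicle (squares) and 12 h against 6 h (triangles), with bars for the SE and open symbols for adjusted p of 0.05 or more. Mmp9 stands highest at 6 h and 12 h, and Mmp14 and Timp1 are the genes whose 12 h symbol lies below the 6 h symbol.

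Ratios of a protease to an inhibitor within a library do not depend on the scaling of libraries, and the pairs Mmp9 with Timp1 and Mmp14 with Timp2 are taken first because these proteins bind each other. The ratio of Mmp9 to Timp1 reads was 0.242, 0.101 and 0.152 in vehicle libraries, 1.06, 0.960 and 0.566 at 6 h and 1.31, 2.72 and 1.20 at 12 h. It was higher in each later group with no overlap: 5.37-fold at 6 h and 10.5-fold at 12 h over vehicle, and 1.95-fold at 12 h over 6 h. The ratio of Mmp14 to Timp2 reads went the other way late. It was 0.760, 0.751 and 1.09 in vehicle, 1.32, 1.32 and 1.35 at 6 h and 0.412, 0.510 and 0.426 at 12 h. At 6 h it was 1.56-fold higher than in vehicle; at 12 h it was 1.91-fold lower than in vehicle and 2.98-fold lower than at 6 h, again with no overlap of groups. Each of these 6 differences had p = 0.1 in an exact two-sided permutation test (adjusted p = 0.15 over 42 tests), and 0.1 is the smallest p that 3 libraries against 3 allow.

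**Figure D4:**
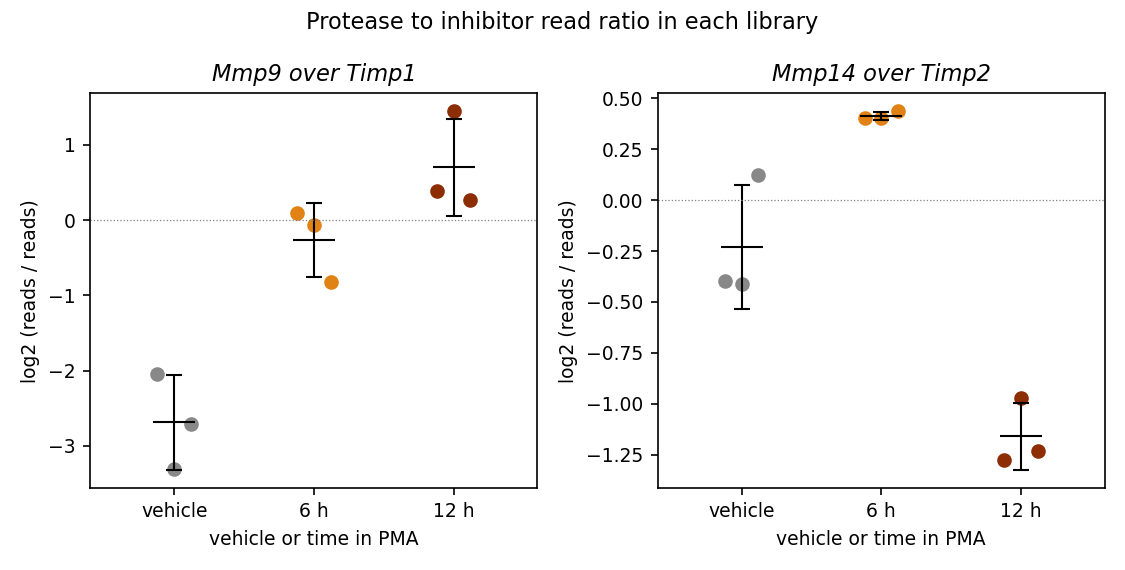
log2 of the Mmp9 to Timp1 read ratio (left) and of the Mmp14 to Timp2 read ratio (right) in vehicle, 6 h and 12 h libraries; points are libraries, long bars the mean and whiskers the SD of 3, and the dotted line marks equal reads. The left ratio steps up at each time, and the right one is highest at 6 h and lowest at 12 h.

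The other pairs, given as log2 differences from vehicle, differed by protease and by time. Over Timp1, Mmp3 was lower by 2.64 at 6 h and by 1.58 at 12 h, and Mmp14 was 2.83-fold lower at 6 h and 3.61-fold lower at 12 h, all without overlap. Mmp12 over Timp1 was lower by 0.87 at 6 h and higher by 1.03 at 12 h, both without overlap, and Mmp10 over Timp1 differed by -0.26 at 6 h with overlap and by 2.06 at 12 h without. Mmp13 over Timp1 overlapped with vehicle at both times (-0.73 and 0.50). Mmp1 over Timp1 was lower by 2.94 at 6 h without overlap and differed by -0.44 at 12 h with overlap. The Mmp1 ratios rest on few reads, 5 to 13 per vehicle library and 4 to 13 per 6 h library. All ratios over Timp1 share its reads, which numbered 33 to 99 per vehicle library. Over Timp2, Mmp9 was higher by 4.57 at 6 h and by 4.31 at 12 h, Mmp10 by 1.88 and 2.98, and Mmp12 by 1.28 and 1.95, each without overlap. Mmp13 over Timp2 was higher by 1.41 at 6 h without overlap and differed by 1.42 at 12 h with overlap, and Mmp3 and Mmp1 over Timp2 overlapped with vehicle at both times. The exact permutation p was 0.1 for each of these differences without overlap. Ratios concern RNA and say nothing of active protein.

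Spread between libraries of a group was uneven. In vehicle, the coefficient of variation (SD over mean) of 7 of the 9 tested genes ran from 37.6% for Mmp13, above that of 92.7% of tested genes, to 78.1% for Mmp10, above that of 98.7%, where the median gene had 8.91%; Mmp14 (10.9%) and Timp2 (12.4%) lay nearer to it. Vehicle replicate 3 was the highest of its group for 8 of the 9 genes, all but Timp2, and vehicle replicate 1 the lowest for 7. The summed level of 8 genes of G2 phase and mitosis (Top2a, Cenpf, Ccna2, Ccnb1, Cdk1, Plk1, Bub1 and Aurkb, chosen after values were seen) also differed among these libraries, at 211, 453 and 840 CPM in vehicle replicates 1, 2 and 3, 14.2 to 18.8 CPM at 6 h and 7.89 to 11.3 CPM at 12 h; its part in the spread of the proteases was not tested. At 6 h the coefficient of variation was 17.8% or less for all tested genes but Mmp1 (66.1%). At 12 h, replicate 2 was the highest for 6 of 9 genes, the 6 MMPs other than Mmp14, and Mmp12 (50.0%) and Mmp9 (48.7%) varied most, while Mmp10 (7.63%), Timp1 (7.07%) and Mmp14 (7.18%) were close between libraries.

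In the current rat assembly Mmp13, Mmp12, Mmp1b, Mmp3, Mmp1, Mmp10, Mmp8, Mmp27, Mmp20 and Mmp7 follow one another along chromosome 8, in that order. Of the 9 with a row in the tables, the 5 members at one end carried reads, from 153 for Mmp1 to 57814 for Mmp10 over all 9 libraries. The remaining 4, Mmp8, Mmp27, Mmp20 and Mmp7, had 1 read in total, of Mmp8 at 12 h. Among their promoters that of Mmp7 holds the AP-1 letters, at -80, and those of Mmp8, Mmp27 and Mmp20 do not. Whether these letters bear on the reads was not tested. Dcun1d5, the gene before Mmp13, fell to 64.4 CPM at 6 h and 48.8 CPM at 12 h, against 77.8 CPM in vehicle (log2 fold changes -0.27 and -0.67, adjusted p = 0.0053 and 9e-07, edgeR). Pcif1, next to Mmp9, differed by 0.06 at 6 h (adjusted p = 0.68, edgeR) and fell by 0.38 at 12 h (adjusted p = 0.01, edgeR), and Slc12a5, on the other side, was too low to test. Mmp3 and Mmp10 are close relatives, and reads that fit such copies equally well were kept on a separate line of the tables, outside the genes.

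**Figure D5:**
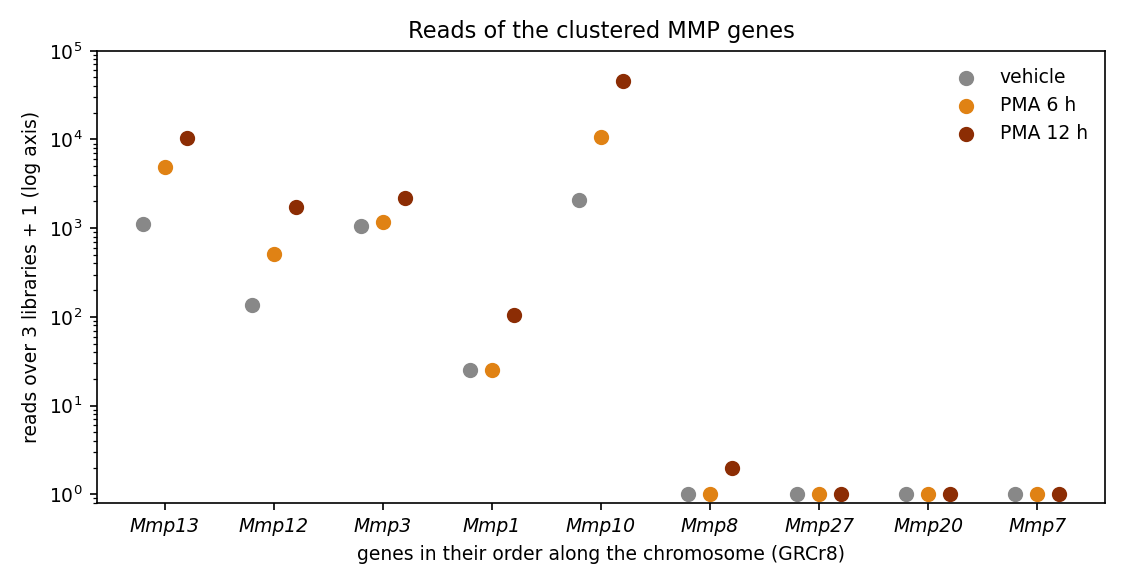
Reads summed over 3 libraries, plus 1, on a log axis (y) for the 9 clustered MMP genes with a row in the tables, in their order along the chromosome (x), for vehicle, 6 h and 12 h. Mmp13, Mmp12, Mmp3, Mmp1 and Mmp10 carry reads, 10418 for Mmp13 and 45193 for Mmp10 at 12 h, and the 4 genes to the right carry 1 read in all.

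The count column used does not part strands, and in the current assembly each of the 3 TIMP members overlaps another gene. Cep295nl, which overlaps Timp2, had 3, 1 and 4 reads in vehicle, 234, 203 and 322 at 6 h and 225, 156 and 155 at 12 h, a log2 fold change of 6.99 ± 0.31 at 6 h (adjusted p = 1.5e-12, edgeR) and 6.68 ± 0.32 at 12 h. It moved up with Timp2 at 6 h but had no call from 6 h to 12 h (-0.31, adjusted p = 0.17, edgeR). Syn1, a synapsin gene that overlaps Timp1, changed in the opposite direction, at 104, 116 and 110 reads in vehicle and 4 to 15 reads in the PMA libraries (log2 fold change -3.09 ± 0.39 at 6 h, adjusted p = 1.2e-06, edgeR). In the column used, reads of such partners cannot be told apart by strand. Reads that fit both genes of an overlap were counted on a separate summary line, which was left out. Syn3, which overlaps Timp3, had 1 read over the vehicle libraries, 2 at 6 h and 5 at 12 h.

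Other genes of the MMP family went in both directions. Of 15 further MMP and TIMP genes with a row (Mmp25 is not analysed here), 5 had 0 reads everywhere and 7 were tested, of which 2 were higher and 4 lower at 6 h and 2 higher and 3 lower at 12 h. With upper-quartile scaling 4 were lower at 12 h and with no normalization 5, and the shares of all tested genes were 37.8% higher and 39% lower at 6 h and 37.7% and 38.2% at 12 h. The list's median log2 fold change was -1.23 at 6 h and -1.01 at 12 h (all tested genes, here and for the lists that follow: -0.03 and -0.02). Mmp15, membrane type 2 MMP, fell to 0.578 ± 0.327 CPM at 6 h and 1.27 ± 0.352 CPM at 12 h, against 12.8 ± 2.22 CPM in vehicle (SD, n = 3), a log2 fold change of -4.50 at 6 h (adjusted p = 1.8e-09, edgeR). Mmp19 fell by 2.88 at 6 h (adjusted p = 5.5e-07, edgeR; -3.53 without 6 h replicate 1) and Mmp28, epilysin, by 1.23 (adjusted p = 2.9e-05, edgeR). Mmp2, gelatinase A and the partner of Mmp14 and Timp2, rose to 2.38 ± 1.19 CPM at 6 h and 1.14 ± 0.566 CPM at 12 h, against 0.261 ± 0.130 CPM in vehicle (log2 fold changes 3.14 and 2.09, adjusted p = 0.00012 and 0.0068, edgeR).

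Most of the tested genes on a list of MMP proenzyme activators and their relatives rose. Of 9 tested among 10 listed, 8 were higher and 1 lower at 6 h, and 8 higher and 0 lower at 12 h; with upper-quartile scaling or none 7 were higher and 1 lower at each time. Of all tested genes 37.8% were higher and 39% lower at 6 h, and 37.7% and 38.2% at 12 h. The list's median log2 fold change was 1.27 at 6 h and 2.06 at 12 h. Plaur, the receptor that holds urokinase at the cell surface, reached 1109 ± 52.0 CPM at 6 h and 1053 ± 101 CPM at 12 h, against 45.5 ± 7.56 CPM in vehicle (SD, n = 3), a log2 fold change of 4.61 at 6 h (adjusted p = 3e-15, edgeR). Plau, urokinase itself, rose by 1.78 (adjusted p = 2.5e-07, edgeR), the membrane serine protease St14 by 2.54 (adjusted p = 1.2e-14, edgeR), and Furin, the proprotein convertase that cleaves the Mmp14 propeptide, by 2.28 (adjusted p = 1.6e-13, edgeR). Plasminogen itself, Plg, averaged 0.0385 CPM at 6 h and had no read in the other groups.

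Genes that restrain, bind or take up MMPs gave 7 higher and 0 lower of 8 tested among 13 listed at 6 h, and 4 higher and 1 lower at 12 h. The shares of all tested genes were 37.8% higher and 39% lower at 6 h, and 37.7% and 38.2% at 12 h. The list's medians were 0.65 and 0.81. At 6 h 5 of its genes were higher with upper-quartile scaling and 3 with no normalization. At 12 h Cd44, with no call at -0.11, was called lower with upper-quartile scaling (-0.38, adjusted p = 0.00086, edgeR). With no normalization it was also called lower (-0.69, adjusted p = 1.3e-06, edgeR). Serpinb2, the plasminogen activator inhibitor 2, rose by 3.31 on the log2 scale at 6 h and by 3.66 at 12 h (adjusted p = 1.4e-14 and 5.7e-15, edgeR). Lrp1, the uptake receptor for protease and inhibitor complexes, rose by 1.78 at 6 h (adjusted p = 1.3e-11, edgeR), and Cd63, a tetraspanin that binds Timp1, by 1.23 (adjusted p = 1.9e-10, edgeR).

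Sheddases and related proteases of the ADAM and ADAMTS families gave 6 higher and 1 lower of 9 tested among 13 listed at 6 h. At 12 h 6 were higher and 0 lower, and the medians were 1.06 and 1.55. With no normalization 5 were higher and 1 lower at 6 h, and 5 higher and 2 lower at 12 h. Upper-quartile scaling gave 5 higher and 1 lower at 12 h. A replicate block gave 5 higher at 12 h, as did most fits that left out 1 library. The shares of all tested genes were 37.8% higher and 39% lower at 6 h, and 37.7% and 38.2% at 12 h. Adamts9, a proteoglycan-cutting protease, rose by 5.33 at 6 h (adjusted p = 8.1e-10, edgeR), and by 6.39 without vehicle replicate 2. Adam10 and Adam17, which release ligands and receptors from the cell surface, rose by 1.69 and 1.06 at 6 h (adjusted p = 9.1e-13 and 3e-09, edgeR), and Adam17 then fell by 0.89 from 6 h to 12 h (adjusted p = 1.9e-07, edgeR). Adam19 rose by 1.77 at 6 h (adjusted p = 0.0022, edgeR), or 2.49 without vehicle replicate 2, and fell by 1.64 from 6 h to 12 h (adjusted p = 0.0094, edgeR).

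Among matrix proteins that MMPs cut, 3 of 7 tested genes out of 14 listed were higher and 4 lower at 6 h and again at 12 h (1 higher and 4 lower at 6 h with no normalization), where 37.8% of all tested genes were higher and 39% lower at 6 h and 37.7% and 38.2% at 12 h. The median was -0.66 at 6 h and -1.16 at 12 h. Lamb3, a chain of the laminin of the epidermal basement membrane, reached 2952 ± 292 CPM at 6 h and 6194 ± 376 CPM at 12 h, against 1049 ± 225 CPM in vehicle (log2 fold changes 1.49 and 2.56, adjusted p = 3.3e-07 and 2.1e-09, edgeR). Col17a1, a collagen of the hemidesmosome, fell by 1.73 at 6 h (adjusted p = 0.0011, edgeR) and Col7a1, the collagen of anchoring fibrils, by 0.85 (adjusted p = 0.00085, edgeR). Spp1, osteopontin, rose by 4.17 at 12 h (adjusted p = 3e-06, edgeR; 5.85 without vehicle replicate 3); its 6 h change of 1.70 (adjusted p = 0.018, edgeR) was 1.14 and lost its call without vehicle replicate 1 (adjusted p = 0.058), 1.33 and lost it without replicate 2 (adjusted p = 0.079), and was 3.38 without replicate 3.

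The AP-1 and ETS transcription factors, whose motifs were searched in the promoters, gave 10 higher and 0 lower of 12 tested at 6 h and 9 higher and 1 lower at 12 h, with medians of 1.30 and 1.48 (at 6 h 10 higher and 1 lower with upper-quartile scaling, 9 and 2 with no normalization; 7 higher and 1 lower at 12 h with upper-quartile scaling, 7 and 4 with no normalization). From 6 h to 12 h 7 were lower and 3 higher. The shares of all tested genes were 37.8% higher and 39% lower at 6 h, and 37.7% and 38.2% at 12 h. From 6 h to 12 h they were 25.3% higher and 25.8% lower. Fosb was 44.7 ± 1.01 CPM at 6 h and 11.4 ± 0.888 CPM at 12 h, against 1.78 ± 0.302 CPM in vehicle (log2 fold changes 4.65 and 2.68, adjusted p = 3.2e-14 and 8.2e-11, edgeR). Junb rose by 3.33 and Fos by 2.27 at 6 h (adjusted p = 2.8e-14 and 1.5e-10, edgeR), and Fos fell by 0.79 from 6 h to 12 h (adjusted p = 0.00012, edgeR). Elf3, an ETS factor of epithelia, rose by 4.18 at 6 h and 4.42 at 12 h (adjusted p = 4.4e-15 and 3.4e-15, edgeR).

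Genes with the most similar pattern over the 9 libraries, by Pearson's r of log2 CPM, were Apaf1 and Slpi for Mmp9 (r of 0.997 each), Itgb7 for Mmp10 (0.995), Il1rl1 (0.995) and Aplp2 (0.994) for Mmp12, Alcam (0.996) and Pbx3 (0.994) for Mmp13, and Tmcc3 and Gmeb1 for Mmp14 (0.998 each). For Timp1 they were Ano6 and Igfbp3 (0.989 each), for Timp2 Hopx (0.998) and Sirt2 (0.997), for Mmp3 Smoc2 (0.977) and Sp100 (0.962), and for Mmp1 Tmem140 (0.969) and Gstm4 (0.960). These values describe likeness only, since the libraries form 3 groups and the best of 10128 genes was taken each time.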

How the data were processed

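Each of 9 libraries came as a deposited table of read counts per gene. Per the submitters' processing notes the tools were STAR 2.7.5b and DESeq2, with genome build rn6; the sources used here do not name the gene annotation. The unstranded count column was used, and its 4 summary lines, reads that map to several places among them, were left out. A deposited table of normalized values (9 columns) was not used.

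Counts were fitted in R 4.3.3 with edgeR 4.0.16 (filterByExpr at a minimum count of 10, TMM scaling, robust quasi-likelihood F test, group as the only term, all 9 libraries), with Benjamini-Hochberg adjustment over 10128 genes and a threshold of 0.05. The coefficient of variation from the common dispersion was 11.2%. The fit was tried on simulated data in which 200 genes were changed and all genes shared the common dispersion. Most of the tested MMP and TIMP genes varied more than that in vehicle, so the simulation does not cover their spread. Ratios were compared by exact permutation. Alternatives were limma-voom (limma 3.58.1), DESeq2 1.42.0, other scalings, no filter, fits on 2 groups, a replicate block and leaving out each library.

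The 10 genes and the lists were chosen with earlier results of these data known. From each list up to 4 genes are named, those of the largest fold change at 6 h among called genes averaging at least 1 CPM, beside genes that overlap or neighbour a member and the 2 most alike genes per member. A few genes that this rule names are not reported here. MMP and TIMP protein sequences were not used here.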

Additional observations from a re-analysis of the deposited data

Results flagged for a closer look

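The change from vehicle differed between 12 h and 6 h, by the edgeR test of 12 h against 6 h, for 7 of the 9 tested genes. Of all tested genes 25.3% were called higher and 25.8% lower in that comparison. Time in PMA and time in culture cannot be told apart in it. The log2 fold change against vehicle at 12 h minus that at 6 h was 2.29 for Mmp1, 1.00 for Mmp9, 2.26 for Mmp10, 1.95 for Mmp12, 1.23 for Mmp13, 1.17 for Timp2 and -0.41 for Mmp14. Mmp14 was the 1 gene among them whose fold change was smaller at 12 h, and Timp2, which bridges it to Mmp2, had the larger fold change at 12 h. Both time points share the vehicle libraries. Groups of 3 libraries were too small to look for single outlying libraries.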

How the results depend on the processing

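Of 458 values recomputed for the tested genes, 442 kept their direction and their side of the threshold, 7 gained a call, 6 lost one and 3 changed sign without a call. With no normalization, genes called higher numbered 2277 at 6 h and 2120 at 12 h and genes called lower 6021 at 12 h, and Mmp1 at 6 h turned to -0.03. That setting shifted the median log2 fold change of all genes by -0.54 at 6 h and -0.58 at 12 h, and upper-quartile scaling by -0.26 and -0.27. Leaving out 1 library at a time, Mmp1 at 6 h ranged from -0.12 to 1.15 and Timp1 from 6 h to 12 h from -0.17 to 0.09; the causes were not tested. Same-numbered replicates did not deviate together (correlations from -0.115 to 0.027), so numbers were not taken to pair libraries; with a replicate block 7650, 7539 and 4955 genes were called at 6 h, at 12 h and between them, against 7776, 7682 and 5175, and 7, 9 and 6 of the MMP and TIMP genes were higher and 1 lower between 6 h and 12 h, as without it. Without 6 h replicate 3, 4 of the MMP and TIMP genes were higher at 12 h than at 6 h. Depth limits Mmp1 and Timp3, which had few reads.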

Other observations

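Neighbours of the other members moved in several directions. Lrp10, beside Mmp14, averaged 403 CPM at 6 h and 394 CPM at 12 h, against 177 CPM in vehicle, log2 fold changes of 1.19 and 1.15 (adjusted p = 1.1e-09 and 1.7e-09, edgeR). Lgals3bp, a secreted glycoprotein gene beside Timp2, fell by 2.24 at 6 h (adjusted p = 9.1e-09, edgeR) and by 0.62 at 12 h (adjusted p = 0.004, edgeR). Araf, a kinase gene beside Timp1, fell by 0.98 at 6 h (adjusted p = 1.1e-08, edgeR) and by 0.40 at 12 h (adjusted p = 0.00036, edgeR). Elk1, an ETS factor gene near Timp1, rose by 0.89 at 6 h (adjusted p = 1.6e-06, edgeR). At 12 h Elk1 had no call against vehicle (0.25, adjusted p = 0.059, edgeR) and differed from 6 h by -0.64 (adjusted p = 2e-04, edgeR).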
